A study of Rattus norvegicus with 9 samples.

Results

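The cytohesins are exchange factors that load Arf GTPases with GTP, and the 3 members described here are Cyth1, Cyth2 and Cyth3. All probe sets that the platform's gene table assigns to one of these symbols were taken, which gave 4 of the 15866 probe sets of the array: 1 for Cyth1, 1 for Cyth2 and 2 for Cyth3. Cyth3 was selected on its measured signal, which was high in buds grown in conditioned medium and low in the other media. Its levels are therefore described without a test, and its paralogs Cyth1 and Cyth2 are set beside it.

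Ureteric buds, the epithelial outgrowths that form the collecting duct tree of the kidney, were dissected from Sprague-Dawley rats at embryonic day 13 and cultured for 4 days in a gel mixed in equal parts from type 1 collagen and Matrigel low in growth factors. Every culture received FGF1 at 250 ng/ml together with GDNF at 125 ng/ml. The BSN group was also given conditioned medium of a cell line from metanephric mesenchyme. The HRG group was given 500 ng/ml heregulin (named as human recombinant heregulin alpha for replicate 1), and the PTN group about 3 µg/ml pleiotrophin purified from the BSN conditioned medium. RNA from 3 pooled buds made a sample, and each group had 3 samples, each hybridised to its own Affymetrix RAE230A rat array after double in vitro transcription. Sample descriptions call BSN growth branching and HRG and PTN growth non-branching, while the series title places PTN with the branching cultures. No group had FGF1 and GDNF alone, so a high value in one medium cannot be told apart from a low value in another.

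A cytohesin holds a Sec7 domain, which carries out nucleotide exchange on Arf proteins, and a pleckstrin homology domain, which binds phosphoinositides and brings the protein to the membrane after PI3-kinase activity. Arf1 and its relatives act in coat formation at the Golgi, and Arf6 acts at the plasma membrane in endosome recycling, cortical actin remodelling and epithelial junction turnover. Cytohesin-3, also known as Grp1, is noted for its binding to the PI3-kinase product PIP3 downstream of insulin and growth factor receptors.

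The RefSeq promoter windows of the 3 genes are shown first, because the paralogs had unlike signal profiles and these are the sequences at their annotated starts. Each run is the 250 bases before the annotated start on GRCr8, 5′ to 3′ on the gene's own strand. Capitals mark matches, on either strand, to a GC box (GGGCGG), an E-box (CACGTG) or a TATA box (TATAAA). These motifs were chosen after the sequences had been seen.
Cyth3, chr12:16047429-16047678, minus strand: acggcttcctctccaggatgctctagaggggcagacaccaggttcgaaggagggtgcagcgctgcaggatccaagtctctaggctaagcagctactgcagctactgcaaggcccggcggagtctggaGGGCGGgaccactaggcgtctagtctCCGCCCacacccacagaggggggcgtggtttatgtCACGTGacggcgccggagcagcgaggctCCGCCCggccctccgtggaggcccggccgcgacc
Cyth2, chr1:105427543-105427792, minus strand: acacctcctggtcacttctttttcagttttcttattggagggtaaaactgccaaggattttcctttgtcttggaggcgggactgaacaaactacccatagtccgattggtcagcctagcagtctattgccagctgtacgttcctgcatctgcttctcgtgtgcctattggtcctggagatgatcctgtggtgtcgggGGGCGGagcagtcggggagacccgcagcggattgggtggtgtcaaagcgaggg
Cyth1, chr10:103984384-103984633, minus strand: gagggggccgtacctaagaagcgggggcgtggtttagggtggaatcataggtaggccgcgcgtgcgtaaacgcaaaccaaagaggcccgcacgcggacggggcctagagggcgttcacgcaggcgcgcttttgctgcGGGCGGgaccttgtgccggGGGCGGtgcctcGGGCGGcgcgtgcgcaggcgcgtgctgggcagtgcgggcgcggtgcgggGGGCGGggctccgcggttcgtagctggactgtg
The Cyth3 window held 3 GC box matches and 1 E-box match, the latter starting 62 bases before the start. The Cyth2 window held 1 GC box match and the Cyth1 window 4, and neither held the E-box. None of the 3 windows held TATAAA. Over 33469 promoter windows of the same length, 30.5% held the GC box, 5.59% the E-box and 12.9% the TATA box. G and C made up 67.2% of the Cyth3 window, 53.6% of the Cyth2 window and 72% of the Cyth1 window, against a median of 51.2%. The start used for Cyth3 lies 29156 bases inside the annotated span of the gene, so other annotated transcripts may start elsewhere. A match is a stretch of letters and shows no binding.

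The arrays had nearly equal trimmed means, and a few features of the samples bear on every comparison. The 40th percentile of the arrays was 705 to 788 in BSN, 666 to 731 in HRG and 580 to 703 in PTN. The mean correlation of an array with the others of its group was 0.946 to 0.976, lowest for PTN replicate 1. Ureteric bud epithelium genes were well represented: of 12 markers on the array 11 were kept after the filter on dim probe sets. Of 12 mesenchyme and stroma markers 8 were not kept, among them Gdnf, Pdgfra, Pdgfrb and Wt1, and of 10 leukocyte markers 6 were not kept, among them Ptprc and Cd68. The series' design text calls the 3 samples of a group biological replicates, and does not say whether they came from different litters. Xist, the RNA of the inactive X chromosome, had signals of 19451, 23556 and 11727 in BSN, 23728, 13.9 and 8614 in HRG, and 15685, 13.8 and 9071 in PTN. The 3 groups overlapped, and replicate 2 of both HRG and PTN was near 0.

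Cyth3 was high in conditioned medium and low in both other media. Its bright probe set (1388712_at) had signals of 19729, 20451 and 23407 in BSN, 1835, 2466 and 3351 in HRG, and 733, 1616 and 1938 in PTN, in arbitrary array units. Every BSN array lay far above every other array, and the HRG and PTN arrays overlapped. The lowest BSN array was 5.89 times the highest HRG array and 10.2 times the highest PTN array. Group means were 21196 ± 1949 with BSN, 2550 ± 761 with HRG and 1429 ± 624 with PTN (n = 3, SD). On the scale of log2(signal + 16), the difference was -3.09 ± 0.302 (SE) for HRG against BSN and -3.98 ± 0.302 for PTN against BSN, which are 8.49-fold and 15.8-fold. These 2 comparisons share the BSN arrays. HRG exceeded PTN by 0.90 ± 0.302 on that scale, or by 0.48 without PTN replicate 1, the lowest array. The relative spread was narrow where the signal was high: the coefficient of variation was 9.19% for the BSN arrays, 29.9% for HRG and 43.7% for PTN.

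The probe sets that passed as higher in BSN than in HRG and than in PTN numbered 320 of 10106 tested, or 3.17% (limma, Benjamini-Hochberg adjusted p under 0.05 in both comparisons). Ranked by the smaller of their 2 log2 differences, Cyth3 stood first at 3.09. The next named genes in that order were Fst, encoding the activin antagonist follistatin, at 2.93, Smad7, an inhibitor of TGF-beta receptor signalling, at 2.68, and Pde4b, a cyclic AMP phosphodiesterase, at 2.66. Since Cyth3 was picked for this very pattern, its presence among the 320 and its place describe the arrays and are no test of it.

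**Figure D1:**
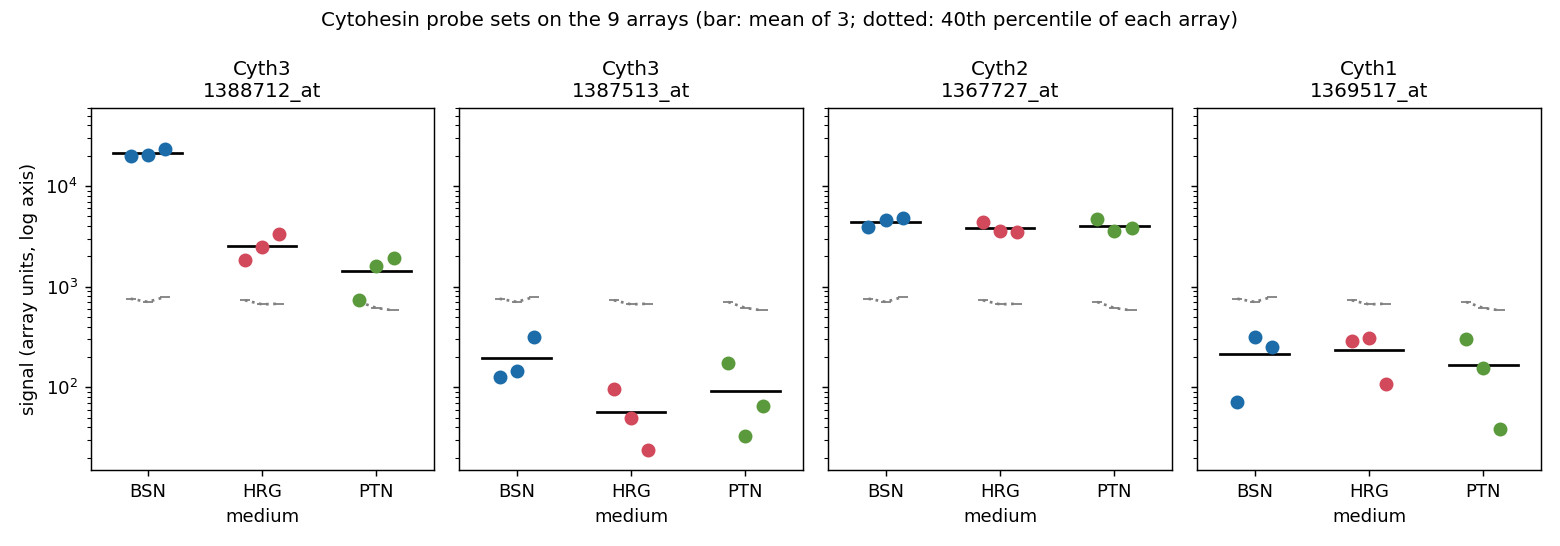
Signal of each cytohesin probe set (vertical axis, array units, log axis) on the 9 arrays by medium. Points are single arrays, bars are means of 3, and dotted marks are the 40th percentile of each array. The bright Cyth3 probe set lies between 19729 and 23407 in BSN and at or under 3351 elsewhere, Cyth2 stays between 3492 and 4778, and the other Cyth3 probe set and Cyth1 lie below the 40th percentile on all arrays.

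The pattern of Cyth3 rested on 1 of its 2 probe sets. The bright one was listed in that table under an expressed sequence tag, and only the platform's gene table ties it to Cyth3. The other (1387513_at), listed under a RefSeq mRNA, had signals of 128, 144 and 317 in BSN, 95.3, 50.1 and 24 in HRG, and 174, 33.1 and 65.2 in PTN. All 9 values were below the 40th percentile of their arrays (580 to 788), so this probe set was removed by the filter and no fold is given. Its BSN arrays were all above its HRG arrays, whereas BSN and PTN overlapped. With no sequence of the probes at hand, the transcript that each probe set measures was not analysed here.

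Cyth2, also known as ARNO, showed no comparable difference. Its signals were 3916, 4579 and 4778 in BSN, 4383, 3570 and 3492 in HRG, and 4715, 3570 and 3837 in PTN. All 3 groups overlapped. The means were 4424 ± 451, 3815 ± 494 and 4041 ± 599 (n = 3, SD). The log2 difference was -0.22 for HRG against BSN (95% interval -0.55 to 0.12, limma adjusted p = 0.396), a comparison in which 15.8% of all probe sets passed. For PTN against BSN it was -0.14 (-0.47 to 0.20, adjusted p = 0.553), where 22.5% passed, and for HRG against PTN -0.08 (-0.41 to 0.25, adjusted p = 0.744), where 25.8% passed. No unadjusted p was under 0.05 either, the lowest being 0.182. The intervals include log2 differences as low as -0.55. Over the 19 alternative analyses the lowest adjusted p was 0.189.

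Within each array the log2 signal of Cyth3 minus that of Cyth2, centred on its mean over the 9 arrays, was 2.24 ± 0.0907 with BSN, -0.63 ± 0.599 with HRG and -1.61 ± 0.928 with PTN (n = 3, SD). It was positive on all 3 BSN arrays, from 2.14 to 2.31, and negative on all 6 others, from -2.68 to -0.08. A factor that scales a whole array cancels in this difference. The signs by medium follow from how Cyth3 was picked, and array scaling as a cause was not tested. No level of one gene is set against that of the other here, since probe sets differ in how brightly they report.

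Cyth1, known for binding the integrin beta-2 chain in lymphocytes, was dim in every medium. Its signals were 71.5, 315 and 249 in BSN, 287, 311 and 107 in HRG, and 303, 154 and 38.6 in PTN. All 9 were below the 40th percentile of their arrays, and the groups overlapped throughout. In the analysis with no filter, in which 9.13%, 12.9% and 14.8% of 15866 probe sets passed for HRG against BSN, PTN against BSN and HRG against PTN, the adjusted p of Cyth1 was 0.912, 0.707 and 0.588 by limma. Whether Cyth1 differs between the media was not detectable at this signal. For Cyth4, the remaining paralog, no probe set carried the symbol alone.

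Other measures of the samples are set beside Cyth3 here. Some of them separated media, and in others the groups overlapped. For actin, the 3′ control probe set over the 5′ one, a ratio that is larger in shortened RNA, gave 28.0 to 37.8 with BSN, 18.6 to 29.6 with HRG and 15.3 to 18.1 with PTN. BSN replicate 1 and HRG replicate 3 had nearly the same ratio, 28.0 and 27.5, and Cyth3 signals of 19729 and 3351. From replicate 1 to 3 the actin ratio and the Cyth3 signal both rose in BSN (ratios 28.0, 33.7 and 37.8) and in PTN (15.3, 16.5 and 18.1). In HRG the ratios were 18.6, 29.6 and 27.5, and Cyth3 was lowest in replicate 1 and highest in replicate 3. The same ratio for GAPDH was 3.75 to 5.83 with BSN, 2.01 to 3.49 with HRG and 2.97 to 6.85 with PTN. The summed signal of 10 leukocyte markers was 5616 to 6240 with BSN, 4888 to 5562 with HRG and 4190 to 5764 with PTN, and that of 9 neuron markers was 9890 to 11319, 4658 to 5619 and 8029 to 10100. The sum of 12 mesenchyme and stroma markers was 4767 to 5774, 4176 to 5188 and 4372 to 5224, and that of 7 endothelium markers was 3804 to 4425, 3437 to 4396 and 2970 to 3926. The 11 nephron epithelium markers summed to 6176 to 7035, 7844 to 9585 and 5646 to 6080, and the 12 bud epithelium markers to 168372 to 180194, 160607 to 175781 and 140612 to 165605. No marker had a signal of 0 on any array. In none of the 6 lists did the BSN sums lie above both other groups, but sums are carried by their brightest members. Of the 28 kept markers 2 were lower in both HRG and PTN than in BSN. That share is larger than the 3.17% of all probe sets but rests on 2 genes. Gap43, a neuron marker, was 2417 ± 415 with BSN, 1459 ± 276 with HRG and 1456 ± 329 with PTN (limma adjusted p = 0.0279 and 0.0208 against BSN). Synpo, a nephron marker, was 2579 ± 341, 1219 ± 157 and 1765 ± 269 (0.000702 and 0.0312). Lrp2, the other of the 2 kept nephron markers, went the other way in HRG, where it was higher than in BSN. Of the 5 kept neuron markers 4 were lower in HRG than in BSN, and 1 was lower in PTN. The part of all these measures in the Cyth3 difference was not tested. HRG replicate 1, with the highest Xist signal of all arrays, had a Cyth3 signal of 1835. Replicate 2 of HRG and of PTN, with Xist at 13.9 and 13.8, had Cyth3 signals of 2466 and 1616. All BSN arrays had Xist at 11727 or more, and whether Cyth3 follows Xist was not tested. In bulk RNA, fewer cells of a type and less RNA per cell cannot be told apart.

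The genes with the profile most like Cyth3 were found by subtracting from each gene its own mean log2 signal over the 9 arrays and taking the root mean square difference from Cyth3. The median of this difference over 7429 genes was 1.73, and Cyth2, at 1.71, ranked 3371. The nearest gene was Pde4b at 0.64, which was 2262 ± 427 with BSN, 344 ± 61 with HRG and 237 ± 62.1 with PTN (n = 3, SD). Runx1, a Runt-family transcription factor, followed at 0.71, with 4821 ± 783 with BSN, 865 ± 133 with HRG and 772 ± 60.8 with PTN.

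All 10 nearest genes, Pde4b and Runx1 among them, had a smaller rise in BSN than Cyth3. The other 8 were 6330403K07Rikl (0.79), Htra3, a secreted serine protease (0.81), Fst (0.82), Dusp2, a MAP kinase phosphatase (0.84), Icam1, an adhesion molecule (0.84), Bcat1, a branched-chain amino acid transaminase (0.86), Asrgl1, an asparaginase-like enzyme (0.94), and Filip1l (0.94). Dusp2 had a signal of 5831 ± 134 with BSN, 2142 ± 296 with HRG and 556 ± 82.9 with PTN, and is the case where HRG and PTN lay furthest apart, at 3.77-fold. In all 10 genes the BSN arrays lay above all HRG and all PTN arrays, which follows from how they were found. Second probe sets did not always follow. That of Pde4b was removed by the filter. A further Fst probe set was 1955 ± 257 with BSN, 963 ± 225 with HRG and 635 ± 92.7 with PTN, whereas a further Htra3 probe set was at 992 ± 86.4, 1103 ± 149 and 1033 ± 48.5, and further kept probe sets of Bcat1 and Asrgl1 were likewise at similar means in the 3 media (733, 718 and 661 for Bcat1, and 1797, 1830 and 1930 for Asrgl1). Of the 9 of these genes with a promoter window, 6 held GGGCGG, and 1, Dusp2, held CACGTG.

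**Figure D2:**
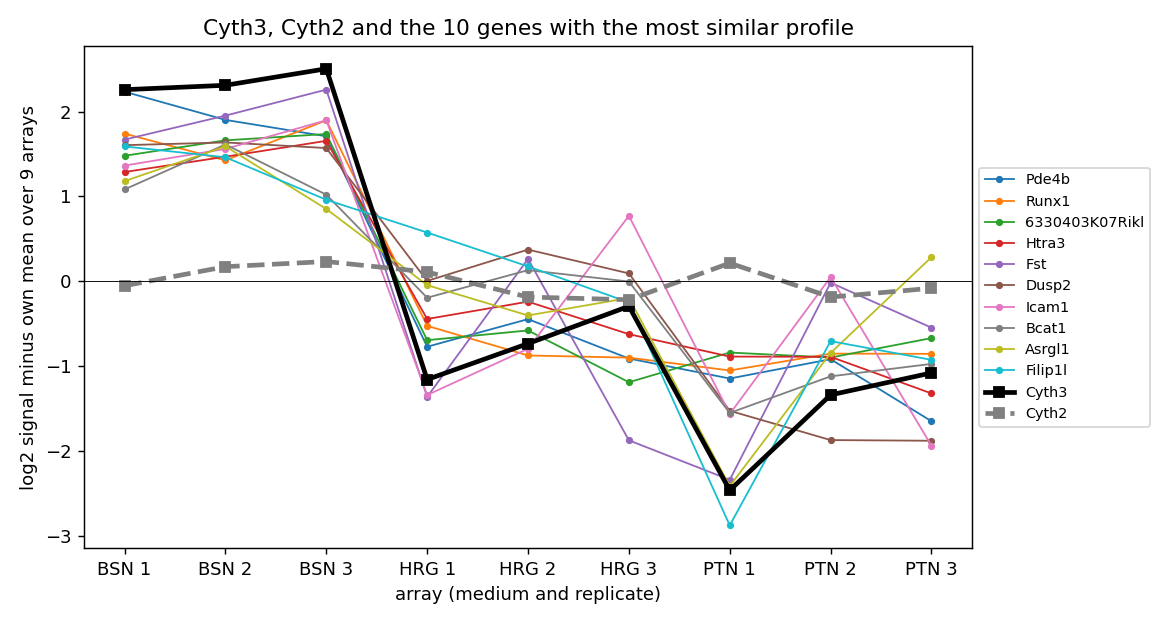
Log2 signal minus each gene's own mean over the 9 arrays (vertical axis) for Cyth3 (thick black line), Cyth2 (grey dashed) and the 10 genes nearest to Cyth3, by array; lines only join the points of a gene. All 10 genes are highest on the BSN arrays, and Cyth2 stays near 0 on every array.

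The chromosomal neighbours of Cyth3 gave signals of their own. In the RefSeq gene table nearby protein-coding genes with kept probe sets included Aimp2, Eif2ak1, Fam220a and Kdelr2. None of the 5 probe sets of these 4 genes passed in HRG against BSN, PTN against BSN or HRG against PTN (limma), in which 15.8%, 22.5% and 25.8% of all probe sets did. With 5 probe sets these counts do not set the neighbours apart from the rest of the array. At an unadjusted p under 0.05 there were 0 for HRG against BSN, 3 for PTN against BSN and 0 for HRG against PTN. Kdelr2, a receptor that returns proteins to the endoplasmic reticulum, was at 2523 ± 765, 2988 ± 1102 and 4523 ± 1493 with BSN, HRG and PTN (n = 3, SD).

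Usp42, a ubiquitin protease gene, is annotated as overlapping Cyth3 by 649 bases. Its probe set was removed by the filter, with signals of 840, 652 and 756 in BSN, 514, 311 and 361 in HRG, and 391, 309 and 181 in PTN. All 3 BSN arrays lay above the other 6, and 1 of them, replicate 1, was above the 40th percentile of its array. Whether Usp42 and Cyth3 probes can take up each other's transcripts was not tested.

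**Figure D3:**
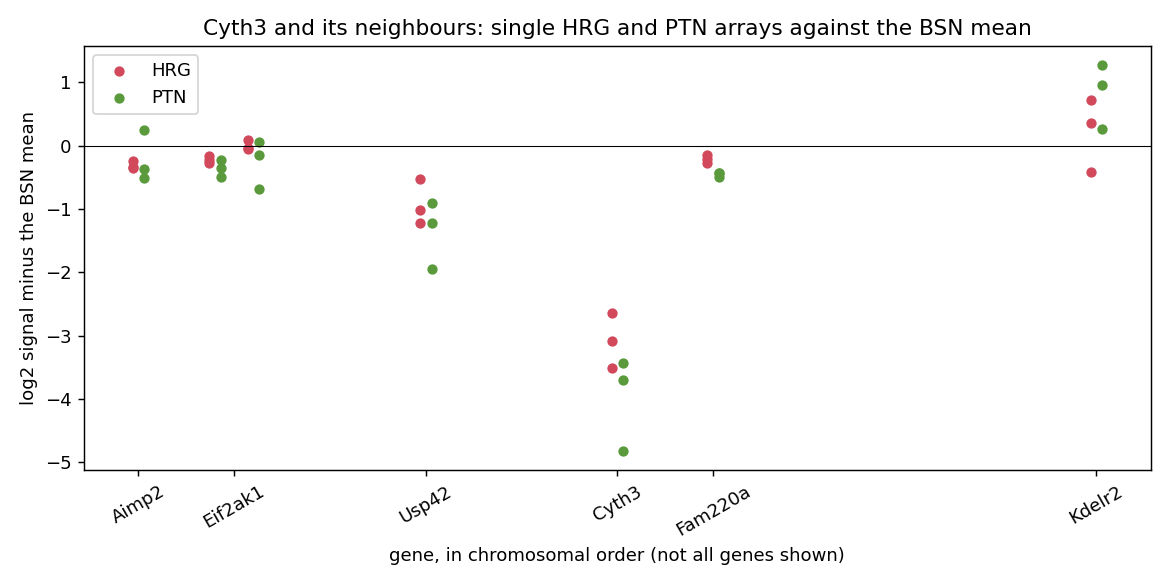
Log2(signal + 16) of single HRG (red) and PTN (green) arrays minus the BSN mean (vertical axis) for Cyth3 and its neighbours in chromosomal order (horizontal axis, not to distance). Every HRG and PTN array of Cyth3, which was picked for its high signal in BSN, lies below every array of the other genes shown. Usp42 arrays all lie below the BSN mean.

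Cytohesins act on Arf GTPases and are recruited through PI3-kinase products, so 7 lists of genes from these pathways were read from the fit, each gene by its brightest probe set. The lists held 76 kept genes. For HRG against BSN 1 was higher and 8 were lower, 11.8% in all against 15.8% of all probe sets. For PTN against BSN 7 were higher and 11 lower, 23.7% against 22.5%, and for HRG against PTN 6 were higher and 6 lower, 15.8% against 25.8%. The shares lay below the background or near it. No list gene differed from BSN as much as Cyth3, which was picked for its high signal in BSN. The lowest log2 differences were -0.94 for Grb10 in HRG against BSN and -0.81 for Sh2b1 in PTN against BSN. Of the 76 genes 3 were lower in both HRG and PTN than in BSN, a share near the 3.17% of all probe sets. They were Ap1m1, Arfip2 and Sh2b1. Of the 39 calls in the 3 comparisons, 12 were kept in all 19 alternative analyses, and of the 189 comparisons without a call, 29 passed in 1 or more alternatives. Of the 11 genes lower in PTN than in BSN, only Ap1m1 and Sh2b1 kept the call after median centring. Quantile normalization ended the same calls except that of Arfip2, and also that of Arf3, which was higher in PTN. For HRG against BSN median centring ended the calls of Ap1m1, Arfip2, Git1 and Sh2b1. Losses given per gene below are mostly those with an array left out. A gene without a call is not shown to be alike in the media. Median log2 differences of the 7 lists were -0.18 to 0.36 for HRG against BSN, -0.31 to 0.10 for PTN against BSN and -0.09 to 0.13 for HRG against PTN, and over all probe sets -0.04, -0.11 and 0.08. The highest of the first range, 0.36, belongs to the binding partners, with 3 genes. All p-values in the account of the lists are limma's, adjusted over all 10106 probe sets.

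The Arf GTPase list holds the Arf proteins, on which cytohesins act, together with related GTPases. Arl1, Arl3, Arl6, Arfrp1, Sar1a and Sar1b are of the latter kind, so the counts are not of cytohesin substrates alone. Of 13 list members on the array 12 were kept. For HRG against BSN none was higher and 1 was lower, where 6.92% of all probe sets were higher and 8.86% lower. Their median log2 difference was 0.04, against -0.04 over all probe sets. Arf6, the plasma membrane Arf, had signals of 1397, 1564 and 1580 in BSN, 1992, 1799 and 1634 in HRG, and 2438, 1030 and 1548 in PTN. Its HRG arrays lay just above its BSN arrays, and its PTN arrays spanned both (adjusted p = 0.549 for HRG against BSN and 0.888 for PTN against BSN). Arf1, the main Golgi Arf, was at 8450 ± 1151 with BSN, 8775 ± 74.9 with HRG and 8632 ± 601 with PTN (n = 3, SD; adjusted p = 0.809 for HRG against BSN). Arf4 was at 20481 ± 1333, 20158 ± 2729 and 24021 ± 535, and Arf5 at 1739 ± 118, 1596 ± 96.3 and 1490 ± 146, with no call for either.

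Arl3, an Arf-like protein of cilia, was the member that was lower in HRG, at 3540 ± 357 against 6483 ± 784 (adjusted p = 0.0141). It no longer passed when BSN replicate 3 (0.0645) or HRG replicate 2 (0.0606) was left out. For PTN against BSN Arl3 had no call (0.0663) but passed as lower without PTN replicate 1 (0.00342) and with array weights (0.00301). Arf2 passed as higher in HRG than in BSN in 3 alternatives (0.00993 to 0.0154), and Arf3 in 2 (0.0156 and 0.0257). Without PTN replicate 1, Sar1b passed as lower in PTN than in BSN (0.00102) and than in HRG (0.000194). For PTN against BSN 2 members were higher and 1 lower, where 9.15% of probe sets were higher and 13.4% lower. Arf3 rose 1.47-fold from 9344 ± 1279 to 13643 ± 1056, which did not pass when BSN replicate 1 (0.0722), BSN replicate 2 (0.106) or PTN replicate 3 (0.0752) was left out. Arf2 was 1.64-fold higher (adjusted p = 0.0342) and Arfrp1, an Arf-related protein of the trans-Golgi, 1.33-fold lower (0.0449). The Arf2 call was lost when any of 5 of the 9 arrays was left out (adjusted p up to 0.138), and the Arfrp1 call with any of 7 (up to 0.161). For HRG against PTN Arfrp1 was the 1 member that was higher, a call lost with any of 6 arrays (up to 0.117), while 14.1% of all probe sets were higher and 11.7% lower.

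Other Arf exchange factors gave a single name. Of 7 on the array 5 were kept, and for HRG against BSN none passed (limma), with 0 at an unadjusted p under 0.05, where 15.8% of all probe sets passed. In PTN against BSN and in HRG against PTN 1 of the 5 passed, where 22.5% and 25.8% of all probe sets did. Psd4, an exchange factor of the EFA6 family that acts on Arf6, was 889 ± 40.7 with BSN, 1003 ± 430 with HRG and 516 ± 32.3 with PTN (n = 3, SD). It was lower in PTN than in BSN (adjusted p = 0.0463). That call was lost when any of 7 arrays was left out (up to 0.124) and with the replicate block (0.0528). Quantile normalization (0.168) and median centring (0.12) ended it too. Psd4 was higher in HRG than in PTN (0.0249), a call lost without HRG replicate 1 (0.107). Of the large Golgi and endosome exchange factors, Gbf1 was at 2614 ± 459, 1923 ± 588 and 1864 ± 492 in BSN, HRG and PTN. It did not pass with all arrays, but for PTN against BSN it passed without PTN replicate 1 (adjusted p = 0.0276) and with array weights (0.0254). Arfgef1 had no call, at 7860 ± 451, 9489 ± 2646 and 7467 ± 1605. Iqsec1 and Fbxo8 had no call either.

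Arf GTPase-activating proteins, which end the signal that exchange factors start, had 11 of 15 members kept. Calls were 0 higher and 1 lower for HRG against BSN, 1 and 2 for PTN against BSN, and 2 and 1 for HRG against PTN. Over all probe sets 15.8%, 22.5% and 25.8% passed in these comparisons. Asap1, which also binds phosphoinositides and focal adhesion proteins, was 1469 ± 216 with BSN, 1167 ± 73.3 with HRG and 2184 ± 157 with PTN (n = 3, SD). It was lower in HRG than in PTN by 1.86-fold (adjusted p = 0.000825), a call kept in all alternatives, and higher in PTN than in BSN by 1.49-fold (0.0154), a call lost without BSN replicate 1 (0.0703) or PTN replicate 2 (0.0585). Git1, a scaffold that binds PAK-associated exchange factors, was the 1 member lower in HRG than in BSN, at 1246 ± 387 against 1993 ± 249, a call lost with any of 6 arrays (up to 0.169). Acap3 and Arap1 were lower in PTN than in BSN by 1.59-fold and 1.52-fold, and Arap1 and Smap1 were higher in HRG than in PTN by 1.48-fold and 1.67-fold. Each of these 4 calls was lost when some array was left out: Acap3 with any of 3 (BSN replicate 1, 0.0561, BSN replicate 3, 0.0793, PTN replicate 3, 0.0809), Arap1 with any of 4 in either comparison (up to 0.0641 and 0.1), and Smap1 with any of 3 (HRG replicate 1, 0.105, HRG replicate 2, 0.0618, HRG replicate 3, 0.0898).

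Cytohesin binding partners were mostly dim, with 3 of 8 kept. Frmd4b, a FERM domain protein that binds Cyth3, was at 608 ± 28.4 with BSN, 784 ± 25.4 with HRG and 669 ± 178 with PTN (n = 3, SD), with no call (adjusted p = 0.346 for HRG against BSN). Cnksr3, a scaffold of the CNK family, was 1.58-fold higher in PTN than in BSN, at 9841 ± 1721 against 6171 ± 740 (adjusted p = 0.00965), a call lost without BSN replicate 3 (0.0501). Pard3, a cell polarity protein, was 1.38-fold lower in PTN than in BSN, a call lost with any of 8 arrays (up to 0.166) and with the replicate block (0.0564). Of the 3 kept, 1 was thus higher and 1 lower for PTN against BSN, where 22.5% of all probe sets passed. For HRG against BSN none of the 3 passed (limma), with 1 higher and 1 lower at an unadjusted p under 0.05, where 15.8% of all probe sets passed. Cnksr3 came nearest there (adjusted p = 0.0567) and passed in 5 of the 19 alternatives, among them without PTN replicate 1 (0.0201) or PTN replicate 2 (0.0447). For HRG against PTN none passed, with 0 unadjusted, where 25.8% of all probe sets passed.

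Arf effectors and coat subunits, with 22 of 24 kept, had 4 members lower in HRG than in BSN and none higher, where 8.86% of all probe sets were lower and 6.92% higher. The calls for 2 of the 4, Ap1m1 and Arfip2, did not hold in every alternative. Counts were 1 higher and 4 lower for PTN against BSN, where 22.5% of all probe sets passed. They were 2 higher and 3 lower for HRG against PTN, where 25.8% passed. Rab11fip4, a recycling endosome adaptor that binds Arf GTPases, was 1559 ± 103 with BSN, 818 ± 99.8 with HRG and 1591 ± 10.2 with PTN (n = 3, SD). It was lower in HRG than in BSN (adjusted p = 0.000937) and than in PTN (0.000472), and both calls were kept in all alternatives. Dock1, an exchange factor of the DOCK family, was 13830 ± 671 with BSN, 8908 ± 840 with HRG and 16149 ± 354 with PTN, again lower in HRG than in BSN (0.00243) and than in PTN (0.000176), with both calls kept. HRG was thus the low group in these 2 genes, whereas Cyth3 was low in HRG and PTN alike.

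Ap1m1 and Arfip2 were low in HRG and in PTN. Ap1m1, a subunit of the AP-1 clathrin adaptor, was 3129 ± 326 with BSN, 2228 ± 106 with HRG and 1832 ± 104 with PTN (n = 3, SD), and Arfip2, the Arf-binding protein arfaptin 2, was 3715 ± 233, 2502 ± 135 and 2224 ± 466. Adjusted p for PTN against BSN was 0.0016 for Ap1m1, kept in all alternatives, and 0.00485 for Arfip2, lost after median centring (0.052). For HRG against BSN it was 0.0235 and 0.0256, and each call was lost with any of 5 arrays (up to 0.108 and 0.0876). The fall from BSN to PTN was 1.7-fold and 1.69-fold in these genes. Ap1g1 and Gga3 were the other members lower in PTN than in BSN, by 1.47-fold and 1.38-fold, lost with any of 8 and of 5 arrays (up to 0.165 and 0.142). Exoc5, a subunit of the exocyst that tethers secretory vesicles, was higher in PTN, at 1027 ± 147 against 518 ± 66 in BSN and 531 ± 80.2 in HRG, with both calls kept (0.00849 and 0.00786). Gga3 and Ap3d1 were higher in HRG than in PTN by 1.35-fold and 1.33-fold, lost with any of 6 and of 8 arrays (up to 0.158 and 0.188). The Ap3d1 call was also lost with the replicate block (0.0518).

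PI3-kinase subunits, PIP3 phosphatases and their kinases had 11 of 16 members kept. Pdpk1, the PIP3-binding kinase that activates Akt, was 11099 ± 1123 with BSN, 17728 ± 1092 with HRG and 18349 ± 4756 with PTN (n = 3, SD). It was higher in HRG than in BSN by 1.6-fold (adjusted p = 0.0195), which did not pass when BSN replicate 2 (0.0882), HRG replicate 2 (0.0572) or HRG replicate 3 (0.0791) was left out. It was higher in PTN than in BSN by 1.62-fold (0.0143), which did not pass when BSN replicate 2 (0.0598), PTN replicate 2 (0.0521) or PTN replicate 3 (0.064) was left out. The other 10 did not pass in these comparisons, in which 15.8% and 22.5% of all probe sets passed. For PTN against BSN, Inpp4a, a phosphoinositide 4-phosphatase (adjusted p = 0.0568), passed in 7 alternatives, among them without BSN replicate 2 (0.0355) or PTN replicate 1 (0.00754), and Akt1 (0.0524) in 5, among them without PTN replicate 1 (0.0328). For HRG against PTN none of the 11 passed (limma), with 0 at an unadjusted p under 0.05 and 25.8% of all probe sets passing, and Inpp4a passed there without PTN replicate 1 (0.0454) and with array weights (0.038). Pik3r1, the regulatory subunit p85 alpha, was dim, with signals of 75.8 to 726 over the 9 arrays.

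Insulin and IGF receptor genes and their substrates had 12 of 17 members kept. Counts were 0 higher and 2 lower for HRG against BSN, 1 and 2 for PTN against BSN, and 0 and 2 for HRG against PTN. Over all probe sets 15.8%, 22.5% and 25.8% passed in these comparisons. Grb10, an adaptor that binds the insulin and IGF1 receptors and inhibits them, was 19769 ± 4128 with BSN, 10226 ± 1471 with HRG and 26981 ± 675 with PTN (n = 3, SD). It was lower in HRG than in BSN (adjusted p = 0.00143) and than in PTN (4.26e-05), and both calls were kept in all alternatives. Sh2b1, an adaptor of insulin and cytokine receptors, was 2710 ± 463 with BSN, 1890 ± 168 with HRG and 1522 ± 33.8 with PTN. Its fall in PTN was kept throughout (0.00237), and its fall in HRG (0.0345) was lost with any of 4 arrays (up to 0.144). Irs2, an insulin receptor substrate, was 1529 ± 211, 1460 ± 132 and 2437 ± 534 in BSN, HRG and PTN. It was lower in HRG than in PTN (0.00899, kept throughout) and higher in PTN than in BSN (0.0175), a call lost without BSN replicate 2 (0.0704) or PTN replicate 3 (0.0746). Ptpn1, a phosphatase of the insulin receptor, was lower in PTN than in BSN by 1.57-fold, a call lost with any of 6 arrays (up to 0.164) and with the replicate block (0.0508). Igf1r was at 1339 ± 211, 1170 ± 221 and 1398 ± 494 with no call. Insr and Irs1 were removed by the filter, with signals of 243 to 564 and 227 to 738 over the 9 arrays.

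**Figure D4:**
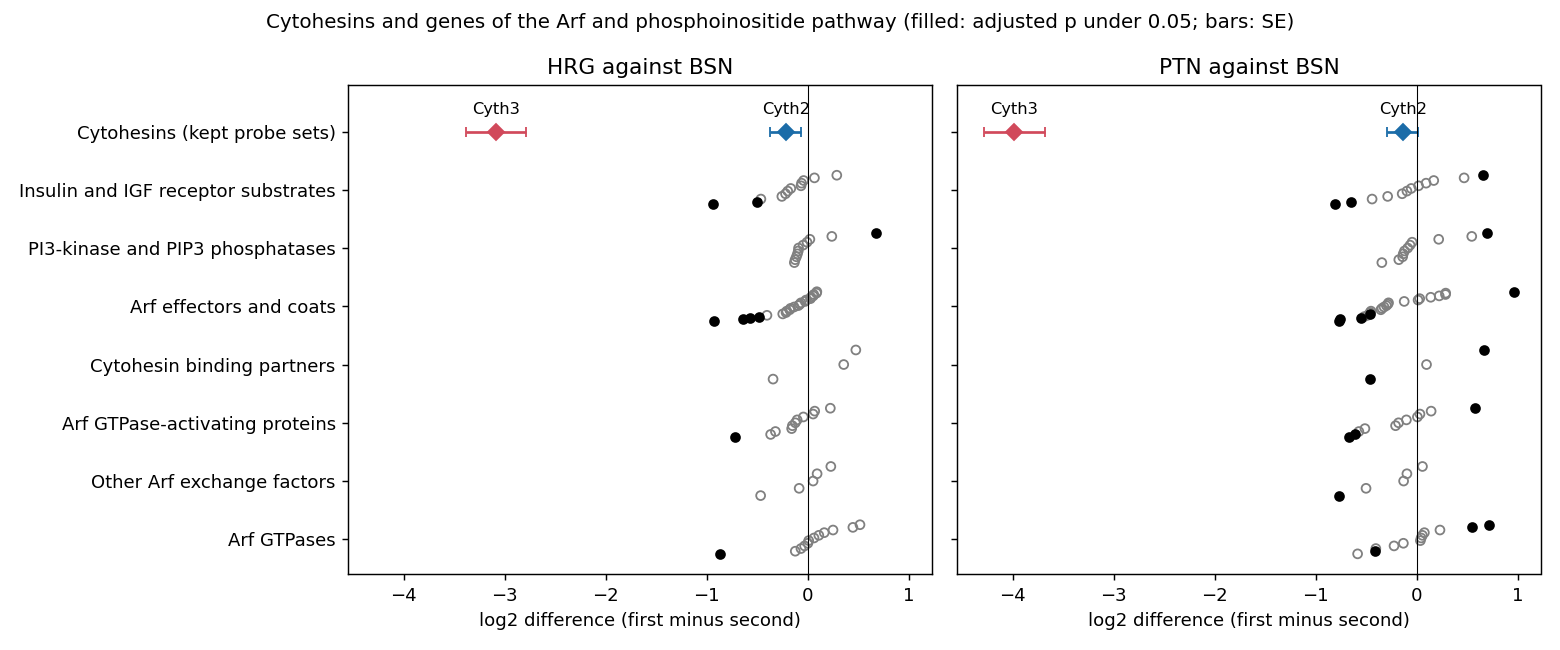
Log2 difference (horizontal axis, first medium minus second) for HRG against BSN and PTN against BSN, for the kept cytohesin probe sets (diamonds with SE) and for single genes of 7 pathway lists (circles, filled where the adjusted p is under 0.05). Cyth3, picked for its high signal in BSN, stands at -3.09 and -3.98, while all list genes lie between -0.94 and 0.96.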

How the data were processed

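The deposited table holds 1 signal intensity per probe set and array, made by the authors with GCOS per the submitters' processing notes, which name no version or settings. The authors' intensity values are linear. Trimmed means of 2500.48 to 2500.58 (2% removed at each end) were nearly equal, so no further scaling was applied. The 40th percentiles of the arrays still differed, from 580 to 788. Of 15923 probe sets, 57 controls were set aside. The filter kept probe sets whose signal exceeded the 40th percentile of the array on 3 or more of the 9 arrays, leaving 10106, of which 8415 had 1 gene symbol. In the platform's table, 12789 probe sets had 1 symbol, 312 several and 2822 none listed, and symbols were updated through RefSeq's GRCr8 gene table by Entrez ID for 12754 and by accession for 2.

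Values were transformed as log2(signal + 16), which understates changes of dim probe sets. Linear models with 3 group means over all 9 arrays used limma 3.58.1 under R 4.3.3 (functions lmFit and eBayes with an intensity trend; 6 residual degrees of freedom, 12.7 after moderation), with Benjamini-Hochberg adjustment over all kept probe sets and a threshold of 0.05. With 3 arrays a group, the number of arrays limits the precision. The fit was tested on simulated data. Members, gene lists and tests were chosen with earlier results of these data known. Named list genes were the 2 highest and 2 lowest per list and comparison by moderated t among those that passed, with a few genes always named and counts of 5 or fewer completed; the likeness rule took the 10 nearest genes, passing over provisional names such as LOC. Titles carry replicate numbers, and pairing by them was checked. Deviations of same-numbered HRG and PTN arrays correlated at 0.118 to 0.332, and those of other groups at -0.0970 to 0.130. The numbers were therefore taken to pair HRG with PTN only. The main fit had no term for this pairing, so the p-values for HRG against PTN ignore it. Only the replicate block used the numbers, and it applied them to BSN as well. Alternatives were other normalizations, pseudocounts of 1 and 64, filters, variance models, the replicate block and each array left out. Matplotlib 3.10.9 under Python 3.11.15 drew the plots. One neighbour of Cyth3 is not reported here.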

Additional observations from a re-analysis of the deposited data

How the results depend on the processing

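The Cyth3 difference kept its direction in all 19 alternatives, at -3.30 to -2.87 for HRG against BSN, -4.26 to -3.57 for PTN against BSN and 0.48 to 1.17 for HRG against PTN, and Cyth2 gained no call. The number of probe sets called moved more. Array weights gave 2439 against 1594 for HRG against BSN and 3480 against 2276 for PTN against BSN. With arrays left out in turn the counts were 1053 (without HRG replicate 3) to 2225 for HRG against BSN, 1358 (without BSN replicate 3) to 3222 for PTN against BSN, and 1882 to 3109 for HRG against PTN, where all arrays gave 2603. With the replicate number as a block (replicate block) the counts were 1641, 2362 and 2690. For PTN against BSN this block ended the calls of Pard3, Ptpn1, Psd4 and the bud marker Ret and brought in Copb2 (adjusted p = 0.0480 by limma), Grb10 (0.0309) and Inpp4a (0.0319), and for HRG against PTN it ended that of Ap3d1. It changed no other call among the list genes or Cyth2. Median centring changed the split of calls for PTN against BSN from 925 higher and 1351 lower to 1598 and 645, for HRG against BSN from 699 and 895 to 855 and 623, and for HRG against PTN from 1423 and 1180 to 943 and 1452. The median log2 difference of all probe sets for PTN against BSN was -0.11 as deposited and 0.10 after this centring. Of the 10 genes nearest to Cyth3, 9 were found again with a pseudocount of 1 and 9 with 64, and none with the dim Cyth3 probe set as the reference. Signals below the 40th percentile limit what can be said of Cyth1 and of the second Cyth3 probe set on all arrays, and of Usp42 on all but BSN replicate 1.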
